A study of Mus musculus with 12 samples.

Results

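The expression of 10 listed imprinted genes was followed in every library of the series: Igf2, H19, Dlk1, Meg3, Peg3, Plagl1, Cdkn1c, Grb10, Peg10 and Sfmbt2. They were taken by symbol from 24062 gene rows, all 10 had a row, and all 10 passed the filter on low counts in each comparison. The members were chosen by name with earlier results of these data known, and the liver diet log2 fold changes, that of Sfmbt2 above all, count among the measured values that selected them, so the liver diet values are given as a description and carry no test. RNA-seq of polyA RNA was compared between a control diet and a diet lacking the amino acid tryptophan (No-Trp diet), each fed for 21 days, in 2 mouse models with 3 mice per diet and 12 libraries in all.

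The MYC-ON livers came from FVB males carrying LAP-tTA and TRE-MYC, in which a transactivator driven by the LAP promoter in hepatocytes switched on a MYC transgene from the day of birth, when doxycycline was withdrawn. The MYC transgene lies on the Y chromosome, hence the males, and the only age the labels give for MYC overexpressing males is 45 days, in a comparison with wild-type livers. The control diet went to mice 101, 102 and 103, the No-Trp diet to mice 105, 107 and 108. The xenografts were HCC53N cells, a mouse liver tumor line with p53 knocked out and mutant NRAS overexpressed in hepatocytes, implanted subcutaneously into female NOD SCID hosts (spelled NOD-SKID in the labels). Hosts 40, 41 and 43 were on control diet; 35, 36 and 37 were on No-Trp diet. The labels give the cancer cell genotype of both models as FVB MYC ON, and whether HCC53N cells carry the MYC transgene was not settled by the sources used here. All xenografts came from 1 cell line and the hosts are mice, so RNA of host cells in a tumor was counted with that of tumor cells. Livers and xenografts differ in host strain, sex of the mouse, site, oncogene and cell source at the same time, and these cannot be told apart. In bulk tissue, fewer cells of a type and less RNA per cell cannot be told apart either.

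Imprinted genes are transcribed mainly from the maternal or the paternal chromosome, and many of them set the growth of the embryo and placenta. Igf2 is a growth factor made from the paternal copy, and H19 is a noncoding RNA made from the maternal copy of the same locus; both are abundant in fetal liver and are silenced there soon after birth. Dlk1 and Meg3 form another such pair, Cdkn1c and Grb10 restrain growth, Peg3 and Plagl1 encode zinc finger proteins, Peg10 derives from a retrotransposon, and Sfmbt2 encodes a Polycomb group protein with MBT domains that is imprinted in extraembryonic tissue of the mouse. Allele of origin was not measured in these files, so the values are totals over both copies.

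Between 14660963 and 26085349 reads per library were counted on genes. Mouse 101 stood apart in that 12.1% of its counts were on Rn45s, a ribosomal RNA precursor row, against 0.261 to 2.22% in the other libraries, and mouse 107 in that 6.04% of its counts were on Alb (albumin). Libraries 101, 108, 41 and 43 bear a resubmission mark in their data names. All 6 hepatocyte markers were detected in every group, but their summed level was 9097 to 109652 CPM (counts scaled to library size) in livers and 309.2 to 804.4 CPM in xenografts, so the xenografts held little hepatocyte RNA. The biological spread between mice of a group was 31.6% in livers and 28.7% in xenografts, as edgeR's common coefficient of variation.

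Several of these genes lie within or beside microRNAs, shown here to identify the short RNAs that were counted in rows of their own beside H19, Igf2 and Meg3. RefSeq sequences for GRCm38.p6 were matched for the microRNAs of H19 (miR-675, minus strand, chr7:142577078-142577133), Igf2 (miR-483, minus strand, chr7:142654932-142654989) and Meg3 (miR-770, plus strand, chr12:109563710-109563765). The seed, bases 2 to 8, is in capitals, and no seed is shared.
miR-675-5p: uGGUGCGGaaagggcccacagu
miR-675-3p: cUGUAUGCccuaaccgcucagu
miR-483-5p: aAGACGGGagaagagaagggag
miR-483-3p: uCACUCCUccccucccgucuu
miR-770-5p: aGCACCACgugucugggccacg
miR-770-3p: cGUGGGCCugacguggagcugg
The libraries hold polyA RNA and did not measure mature microRNAs. The row of Mir675 was at 0 in all 12 libraries although H19 had the highest level per kilobase of the 10 genes, and that of Mir770 was at 0 as well. Reads that fall in a microRNA inside a host exon can be counted for either row or for neither, and the counting rule is not given in the sources used here. Sfmbt2 overlaps 55 counted microRNA rows, of which 47 were at 0 in every library and none exceeded 14 counts in a library. Their sequences are not shown.

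Promoter windows of 300 bases (250 before the start of transcription and 50 after it) were matched in RefSeq for 7 of the 10 genes, 13 windows in all. Windows are shown for Sfmbt2, the gene with the widest range among livers, and for Peg3 and Meg3. Peg3 and Meg3 are the 2 genes with TGACGTCA in a window. The windows that are not shown, among them that of Plagl1 and a second of Meg3, held no TGACGTCA. Capitals mark GGGCGG or its complement, and TGACGTCA, on either strand.
Sfmbt2, upstream window, chr2:10370201-10370500, plus strand: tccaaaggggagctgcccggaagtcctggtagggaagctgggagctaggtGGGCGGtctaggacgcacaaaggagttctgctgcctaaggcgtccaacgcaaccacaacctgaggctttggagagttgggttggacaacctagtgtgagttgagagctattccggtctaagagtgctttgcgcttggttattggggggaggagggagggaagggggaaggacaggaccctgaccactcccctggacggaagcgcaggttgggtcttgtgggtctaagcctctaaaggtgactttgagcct
Sfmbt2, downstream window, chr2:10372186-10372485, plus strand: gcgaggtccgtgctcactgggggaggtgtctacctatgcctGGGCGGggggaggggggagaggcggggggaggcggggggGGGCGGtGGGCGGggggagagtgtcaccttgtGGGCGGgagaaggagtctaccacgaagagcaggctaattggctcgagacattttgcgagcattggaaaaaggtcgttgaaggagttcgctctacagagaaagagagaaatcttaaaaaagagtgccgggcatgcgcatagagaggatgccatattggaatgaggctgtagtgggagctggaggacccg
Peg3, chr7:6730370-6730669, minus strand: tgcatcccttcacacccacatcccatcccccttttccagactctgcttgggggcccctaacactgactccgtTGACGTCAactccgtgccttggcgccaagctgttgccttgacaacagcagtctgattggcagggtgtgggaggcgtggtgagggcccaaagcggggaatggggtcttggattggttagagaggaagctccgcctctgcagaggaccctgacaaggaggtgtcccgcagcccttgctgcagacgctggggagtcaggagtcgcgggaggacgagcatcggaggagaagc
Meg3, upstream window, chr12:109540746-109541045, plus strand: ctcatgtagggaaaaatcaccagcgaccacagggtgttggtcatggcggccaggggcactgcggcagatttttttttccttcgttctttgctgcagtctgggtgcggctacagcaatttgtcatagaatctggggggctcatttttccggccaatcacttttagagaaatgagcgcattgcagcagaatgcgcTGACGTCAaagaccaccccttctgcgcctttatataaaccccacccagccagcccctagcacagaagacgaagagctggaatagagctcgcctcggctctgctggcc
GGGCGG was found 1 time in the upstream and 4 times in the downstream window of Sfmbt2, and 35.7% of all 32851 windows held it at least 1 time. TGACGTCA stood in 2 of the 13 windows, that of Peg3 and the upstream one of Meg3, and in 1.79% of all windows. CACGTG, the E-box that MYC with MAX recognizes, was in 1 of the 13 windows (Plagl1) against 7.15% of all windows, and TGATGNAA, part of the amino acid response motif read by ATF4, was in 0 of 13 against 3.97%. A match of letters is a description of the window and says nothing about occupancy.

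**Figure D1:**
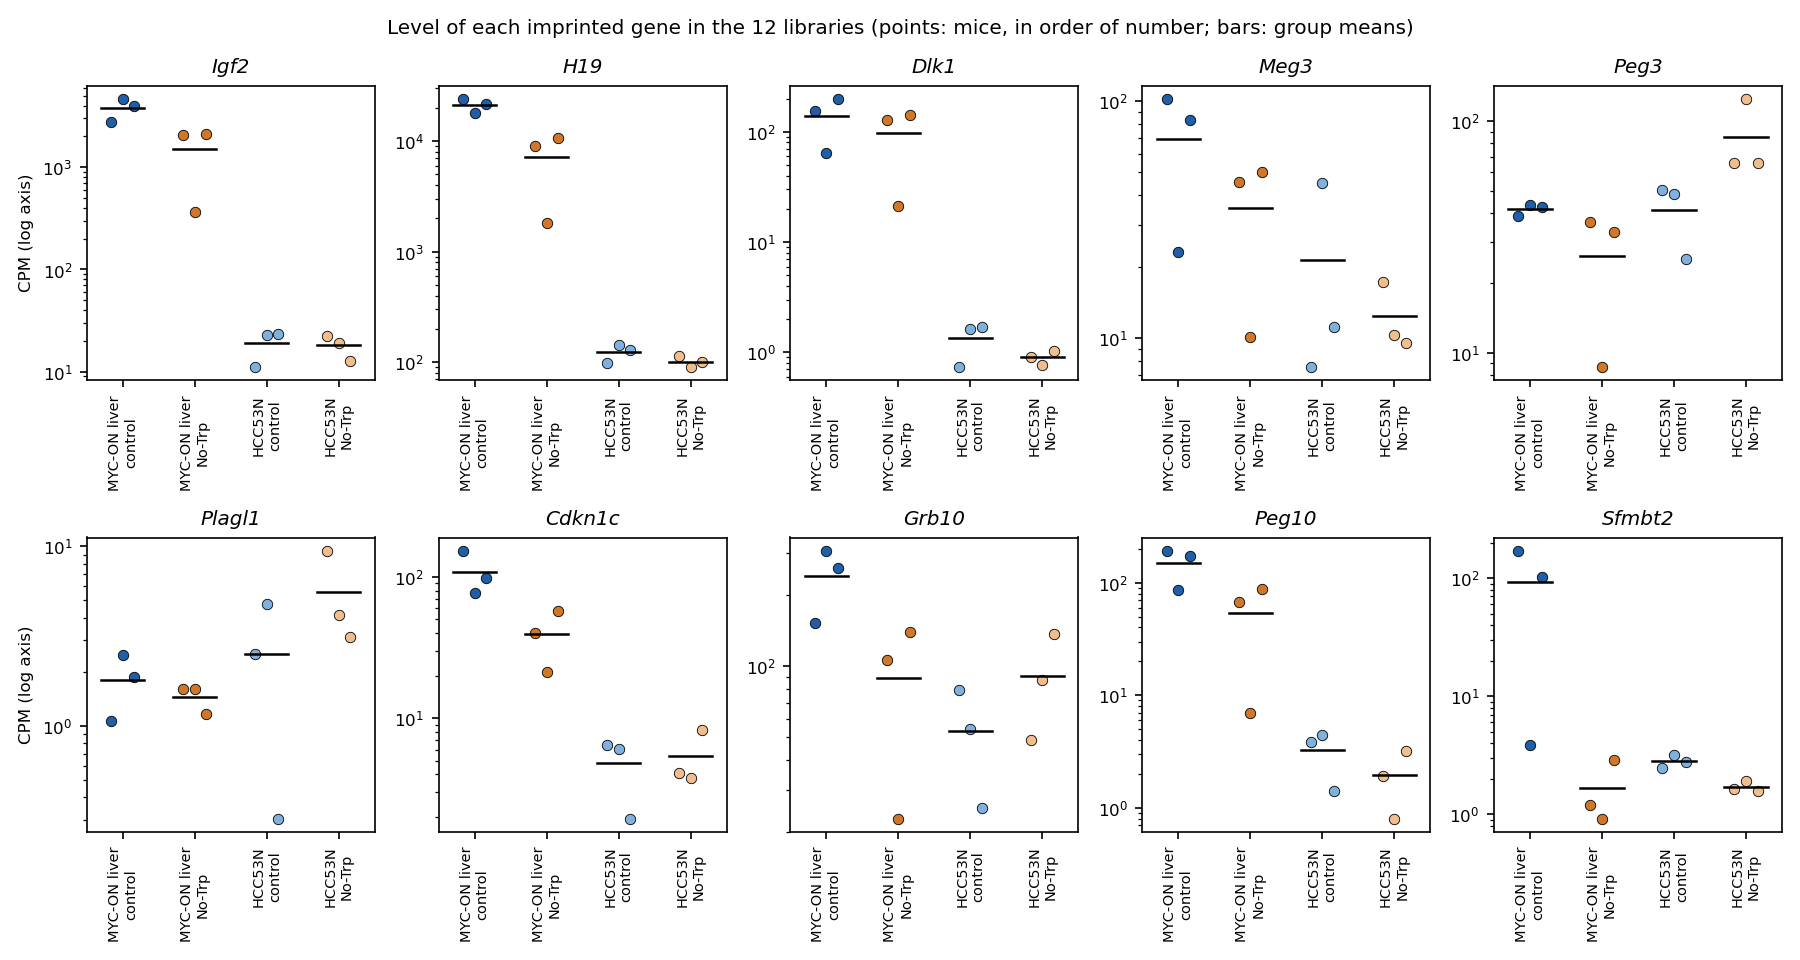
Level of each of the 10 genes in CPM (TMM-scaled, logarithmic axis with a different range in each panel) in the 4 groups of 3 libraries. Points are mice in order of their number and bars are group means. Sfmbt2 stood at 170.0 and 102.6 CPM in livers 101 and 103 and at or below 3.89 CPM in the other 10 libraries.

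Igf2 and H19 were the most abundant of the 10 genes per kilobase in livers and were over 6 log2 units lower in xenografts. The Igf2 level was 2749, 4601 and 4000 CPM in control livers 101, 102 and 103, 2057, 368.1 and 2111 CPM in No-Trp livers 105, 107 and 108, 11.1, 22.7 and 23.2 CPM in control xenografts 40, 41 and 43, and 22.6, 19.2 and 12.8 CPM in No-Trp xenografts 35, 36 and 37. The H19 level in the same order of mice was 23843, 17834 and 21502 CPM, then 8970, 1801 and 10660 CPM in livers, and 98.1, 142.4 and 129.1 CPM, then 113.0, 90.4 and 99.6 CPM in xenografts. For both genes each No-Trp liver lay below each control liver, mouse 107 lay furthest down, and the xenograft groups overlapped.

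In control livers H19 alone took 1.7 to 2.32% of all counts. Per kilobase of exon, H19 reached 8561 ± 1231 RPKM (SD, n = 3) and Igf2 661.1 ± 165.1 RPKM in control livers, first and second among the 10 genes. The No-Trp minus control difference in livers was -1.31 ± 0.62 log2 units (fit ± SE) for Igf2 and -1.55 ± 0.65 for H19. Without mouse 107 the log2 ratio of group means went from -1.32 to -0.86 for Igf2 and from -1.56 to -1.10 for H19. In xenografts the diet difference was -0.08 log2 units for Igf2 (95% confidence interval -0.8 to 0.65; adjusted p = 0.929) and -0.30 for H19 (-0.7 to 0.1; adjusted p = 0.432), so neither passed. Against the livers, Igf2 was lower in xenografts by -7.64 ± 0.70 log2 units on the control diet (adjusted p = 2.81e-06) and by -6.37 on the No-Trp diet (adjusted p = 7.54e-06), and H19 by -7.42 ± 0.62 (adjusted p = 9.75e-07) and -6.14 (adjusted p = 2.86e-06).

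The ratio of H19 to Igf2 moved far less than either RNA. Per kilobase it ranged from 9.02 to 20.2 in livers and from 10.9 to 20.5 in xenografts, and the ranges overlapped. Igf2os, an antisense row that overlaps Igf2, gave 61 to 1086 counts in livers and 3 to 7 in xenografts, and its level was 0.00517 to 0.0189 of that of Igf2 per kilobase in all 12 libraries. Whether the counting used strand is not given in the sources used here, and without strand reads of Igf2 and Igf2os cannot be told apart. Mir483, inside Igf2, had 13, 27 and 42 counts in control livers and 20, 1 and 3 in No-Trp livers.

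**Figure D2:**
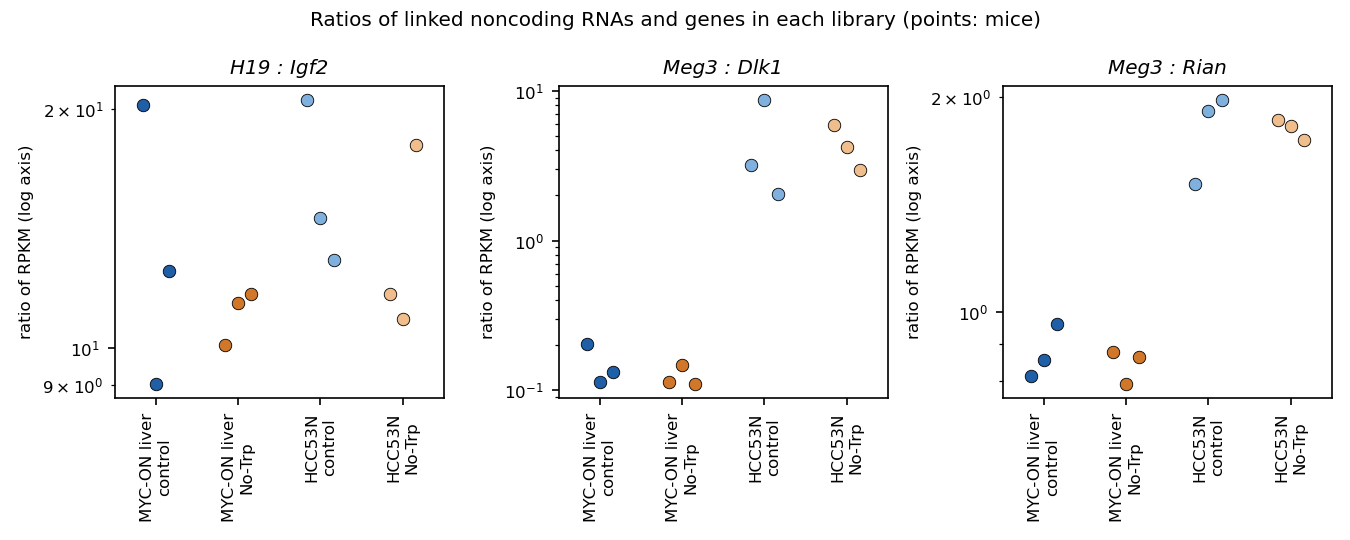
Ratio of RPKM of H19 to Igf2, Meg3 to Dlk1 and Meg3 to Rian (logarithmic axes) in each of the 12 libraries, with points for mice. H19 to Igf2 overlapped between livers and xenografts, whereas Meg3 to Dlk1 was 0.11 to 0.205 in livers and 2.04 to 8.66 in xenografts.

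Dlk1, a membrane ligand of the Delta family that marks fetal hepatoblasts, and Meg3, a noncoding RNA from the same domain on chromosome 12, differed in how far below the livers the xenografts lay. Dlk1 stood at 155.4, 63.9 and 196.6 CPM in control livers, 127.1, 21.3 and 143.3 CPM in No-Trp livers, 0.735, 1.63 and 1.71 CPM in control xenografts, and 0.907, 0.767 and 1.02 CPM in No-Trp xenografts. Meg3 stood at 101.7, 23.2 and 83.4 CPM, 45.7, 10.1 and 50.3 CPM, 7.55, 45.3 and 11.1 CPM, and 17.2, 10.3 and 9.58 CPM in the same groups. Control and No-Trp groups overlapped for both genes in both models, with mouse 102 the lowest control liver and mouse 107 the lowest liver for each, and xenograft 41 had the highest Meg3 level of the tumors.

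Dlk1 was lower in xenografts by -6.67 ± 0.76 log2 units on the control diet (adjusted p = 1.89e-05) and by -6.76 on the No-Trp diet (adjusted p = 1.75e-05). The Meg3 difference between models was -1.70 (adjusted p = 0.0729) and -1.51 (adjusted p = 0.106) and did not pass. On the control diet it was -2.89 with adjusted p = 0.0091 when xenograft 41 was left out, and by DESeq2 the adjusted p was 0.0214 between control-fed and 0.0341 between No-Trp-fed models. The diet difference in livers was -0.50 ± 0.70 log2 units for Dlk1 and -0.97 ± 0.70 for Meg3, and without mouse 107 the log2 ratio of group means went from -0.51 to -0.04 and from -0.97 to -0.53. In xenografts it was -0.61 for Dlk1 (-1.71 to 0.49; adjusted p = 0.563) and -0.80 for Meg3 (-2.38 to 0.78; adjusted p = 0.589). Without xenograft 41 the Meg3 value turned to 0.39. Dlk1 in xenografts rests on a mean of 26.0 counts per library.

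Rian, another noncoding RNA downstream of Meg3, followed Meg3 closely. Its level was 126.3, 27.4, 87.5, 52.6, 12.8 and 58.7 CPM in livers 101, 102, 103, 105, 107 and 108, and it was the gene most correlated with Meg3 across the 6 livers (Pearson r of log2 CPM 0.997) and across the 6 xenografts (0.991), as a description over points that share diet groups. The ratio of Meg3 to Rian per kilobase was 0.791 to 0.961 in livers and 1.51 to 1.98 in xenografts, without overlap. Of the 6 other listed genes of the domain 4 could be tested in livers and 5 in xenografts, and none was called between diets by edgeR or DESeq2, with 0 at an unadjusted p under 0.05 in either model. Between models Rian was lower in xenografts by -2.79 ± 0.75 log2 units (adjusted p = 0.00754) and Dio3, a deiodinase at the far end of the domain, was higher by 3.51 ± 0.98 (adjusted p = 0.00853) on the control diet.

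Cdkn1c, a cyclin-dependent kinase inhibitor expressed from the maternal copy, was lower in each No-Trp liver than in any control liver. Its level was 152.7, 77.2 and 97.4 CPM in control livers and 40.4, 21.3 and 57.5 CPM in No-Trp livers. The xenograft levels were 6.42, 6.02 and 1.95 CPM on the control diet and 4.1, 3.77 and 8.31 CPM on the No-Trp diet, with overlap. The liver difference was -1.45 ± 0.40 log2 units (2.72-fold lower). Over the 6 single omissions the value lay between -1.80 and -1.13. In xenografts the diet difference was 0.16 (-1.0 to 1.31; adjusted p = 0.909). Cdkn1c was lower in xenografts than in livers by -4.49 ± 0.54 on the control diet (adjusted p = 2.74e-05) and by -2.88 on the No-Trp diet (adjusted p = 0.000454).

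Among the other 6 cyclin-dependent kinase inhibitors listed, 1 was called between diets in livers, Cdkn2d, at -1.25 ± 0.25 log2 units (adjusted p = 0.0221). Of all genes tested in livers 16.5% were called. In xenografts edgeR and DESeq2 called none, and 2 had an unadjusted p under 0.05. The median difference of those 6 was 0.19 in livers, beside -0.00 over all genes tested.

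Grb10, an adaptor protein that dampens insulin and IGF1 receptor signalling, was lower in each No-Trp liver than in each control liver, and the 2 models met on the No-Trp diet. It stood at 152.3, 306.7 and 258.8 CPM in control livers and 105.8, 22.7 and 139.2 CPM in No-Trp livers. In xenografts it stood at 79.6, 54.2 and 25.1 CPM on the control diet and 48.6, 87.8 and 136.1 CPM on the No-Trp diet, with overlap. The diet difference was -1.41 ± 0.61 log2 units in livers and 0.77 in xenografts (-0.41 to 1.95; adjusted p = 0.483). Grb10 was lower in xenografts by -2.17 ± 0.63 on the control diet (adjusted p = 0.0109), whereas on the No-Trp diet the difference was 0.03, and the sign of that value depended on the scaling.

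Peg3, a zinc finger protein with roles in growth and maternal behaviour, lay on opposite sides of the controls in the 2 models. Its level was 39.0, 43.6 and 42.6 CPM in control livers and 36.5, 8.67 and 33.2 CPM in No-Trp livers. In xenografts it was 50.5, 48.4 and 25.5 CPM on the control diet and 66.0, 124.0 and 66.2 CPM on the No-Trp diet. Every No-Trp liver lay below every control liver and every No-Trp xenograft above every control xenograft.

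The Peg3 diet difference was -0.66 ± 0.47 log2 units in livers, where 2 of the 3 No-Trp mice lay close under the controls: the log2 ratio of group means was -0.68 with and -0.26 without mouse 107. In xenografts it was 1.03 ± 0.34 (0.25 to 1.81), with adjusted p = 0.201 by edgeR and 0.0433 by DESeq2. Control livers and control xenografts did not differ by the test (-0.01 log2 units, interval -0.99 to 0.97), and on the No-Trp diet Peg3 was higher in xenografts by 1.71 (adjusted p = 0.00721). Of the 6 other genes listed for the Peg3 domain, 4 had a row and only Usp29 could be tested, at 1.58 ± 0.61 log2 units between diets in xenografts (adjusted p = 0.251).

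Beside the xenograft values of Peg3, 4 adipocyte markers summed to 3.68 to 19.5 CPM in control tumors but 170.6 to 417.6 CPM in No-Trp tumors. Of the 4, edgeR called 2, where 0.360% of all genes were called. DESeq2 called all 4, and 4 had an unadjusted p under 0.05 by edgeR. The 5 skeletal muscle markers summed to 1.18 to 16 CPM and 23.4 to 47.3 CPM, with none called by edgeR or DESeq2 and 3 at an unadjusted p under 0.05, and no marker of either list was at 0 in every library of a group. Among No-Trp xenografts tumor 36 had the highest Peg3 level and the lowest sum of both lists. Both of its sums lay above those of every control tumor, and nothing is read from the order within the group. The part of these cells in the Peg3 values was not tested.

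Plagl1, a zinc finger transcription factor of the imprinted gene network, had the lowest level per kilobase of the 10 genes in control livers. It stood at 1.06, 2.48 and 1.88 CPM in control livers, 1.6, 1.6 and 1.17 CPM in No-Trp livers, 2.5, 4.75 and 0.305 CPM in control xenografts, and 9.43, 4.14 and 3.14 CPM in No-Trp xenografts. Diet groups overlapped in both models, and the lowest value was that of xenograft 43. The difference was -0.28 ± 0.41 log2 units in livers and 1.11 in xenografts (-0.8 to 3.02; adjusted p = 0.535). On the No-Trp diet Plagl1 was higher in xenografts by 1.93 (adjusted p = 0.0373), a call that was lost without mouse 105, 107, 108 or 35 and with the resubmission mark as a covariate.

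Peg10, whose open reading frames derive from a retrotransposon and which is needed for placental growth, lay between 66.8 and 191.8 CPM in 5 of the 6 livers. It stood at 191.8, 86.9 and 173.1 CPM in control livers, 66.8, 6.89 and 87.9 CPM in No-Trp livers, 3.82, 4.47 and 1.4 CPM in control xenografts, and 1.92, 0.8 and 3.18 CPM in No-Trp xenografts. Control liver 102 and No-Trp liver 108 differed little, so the liver groups overlapped, and the low value was again that of mouse 107. The diet difference was -1.47 ± 0.80 log2 units in livers and -0.73 in xenografts (-2.09 to 0.63; adjusted p = 0.575). Peg10 was lower in xenografts by -5.52 ± 0.88 on the control diet (adjusted p = 0.000253) and by -4.79 on the No-Trp diet (adjusted p = 0.000583). Sgce, which starts 0.099 kb from Peg10 on the other strand and is imprinted with it, differed between diets by -0.39 ± 0.35 in livers and -0.15 ± 0.67 in xenografts and was not called.

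Sfmbt2 had the widest range of the 10 genes in livers. It stood at 170.0, 3.89 and 102.6 CPM in control livers 101, 102 and 103 and at 1.2, 0.922 and 2.87 CPM in No-Trp livers 105, 107 and 108, from 3524, 69 and 2569 counts and 21, 15 and 37 counts. In xenografts it stood at 2.45, 3.19 and 2.8 CPM on the control diet and 1.63, 1.9 and 1.57 CPM on the No-Trp diet. Livers 101 and 103 thus stood apart from the other 10 libraries, and control liver 102 lay closer to the No-Trp livers and the xenografts than to its own group.

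The fitted liver difference was -5.81 ± 1.32 log2 units, 55.9-fold lower on the No-Trp diet. With 1 mouse left out at a time the value lay between -6.41 and -5.03. The xenograft diet groups did not overlap either, with a difference of -0.74 ± 0.36 (-1.56 to 0.08; adjusted p = 0.341). Sfmbt2 was lower in xenografts by -5.03 ± 0.98 on the control diet. The control livers in that difference also gave the liver diet values by which the list was chosen, so it is a description with no test. On the No-Trp diet the difference was 0.07, whose sign changed with the scaling.

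Marker sums of the same livers are given here beside the Sfmbt2 levels. The 6 hepatocyte markers summed to 11727 and 9097 CPM in livers 101 and 103 and to 35078 CPM in liver 102, against 42951 to 109652 CPM in No-Trp livers. The 6 proliferation genes summed to 1184, 1018 and 1155 CPM in the 3 control livers and to 320.3, 71.3 and 316.3 CPM in No-Trp livers 105, 107 and 108. The 5 erythroid markers summed to 56.4 CPM in liver 101, to 565.8 and 372.8 CPM in livers 102 and 103, and to 15.7 to 24.3 CPM in No-Trp livers. None of these markers was at 0 in a liver group, and their part in the values of the imprinted genes was not tested.

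**Figure D3:**
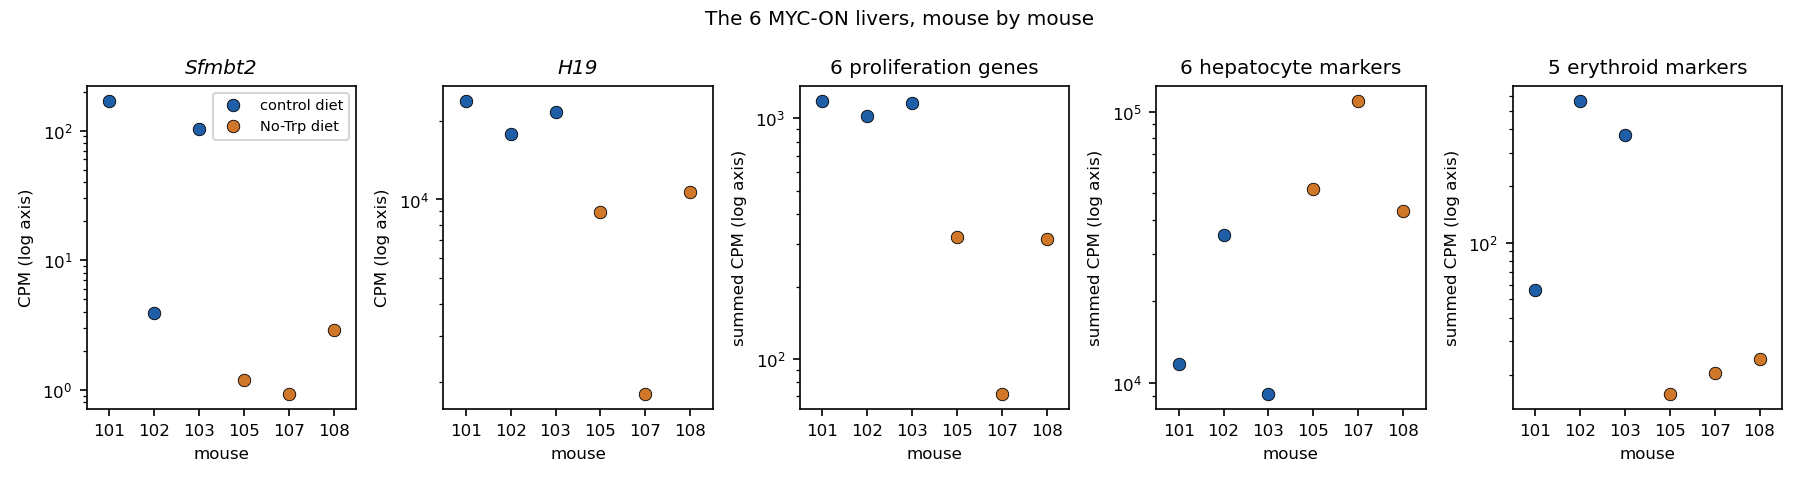
Sfmbt2 and H19 levels in CPM and summed CPM of 6 proliferation genes, 6 hepatocyte markers and 5 erythroid markers in each of the 6 MYC-ON livers (logarithmic axes), with blue points for the control diet and orange for the No-Trp diet. Mouse 107 was lowest in Sfmbt2, H19 and the proliferation genes and highest in the hepatocyte markers, and liver 102 had Sfmbt2 at 3.89 CPM.

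Set side by side, 10 of the 10 genes were lower in No-Trp livers, with a median of -1.36 log2 units beside -0.00 over all 14122 genes tested. In all, 2 were called, Cdkn1c and Sfmbt2 (adjusted p not above 0.05, log2 difference beyond 1 either way), where 16.5% of all genes were (7.27% lower, 9.28% higher). Cdkn1c was not called without mouse 101, 103, 105 or 107, nor Sfmbt2 without 101, 103, 105, 107 or 108. In 6 genes the values did not overlap between diets, all lower, where 25.0% of all genes were lower without overlap. Because these values took part in the choice of the list, nothing is read from those counts. Mouse 107 was the lowest liver for 9 of the 10 genes, Plagl1 being lowest in mouse 101.

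In xenografts 4 genes were above and 6 below 0, with a median of -0.19, and 0 of 10 were called by edgeR, where 0.360% of 14704 genes were. At an unadjusted p under 0.05 there was 1, Peg3, which DESeq2 called. Peg3 was the 1 gene of the list higher without overlap, where 10.7% of all genes were, and Sfmbt2 the 1 lower without overlap, where 11.8% were, so these counts stay near the background.

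The difference between the diet effects, xenograft minus liver, was above 0 for 9 genes and had a median of 1.35, beside 0.03 over all 15472 genes. It was 5.09 ± 1.33 log2 units for Sfmbt2, 2.20 ± 0.86 for Grb10, 1.72 ± 0.64 for Peg3 and 1.61 ± 0.68 for Cdkn1c, and the rest lay between -0.09 and 1.43. These differences contain the liver diet values by which the list was chosen, so they are a description with no test. By edgeR 1 of the 10, Sfmbt2, was past the thresholds, where 12.7% of all genes were, and nothing is read from that count.

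**Figure D4:**
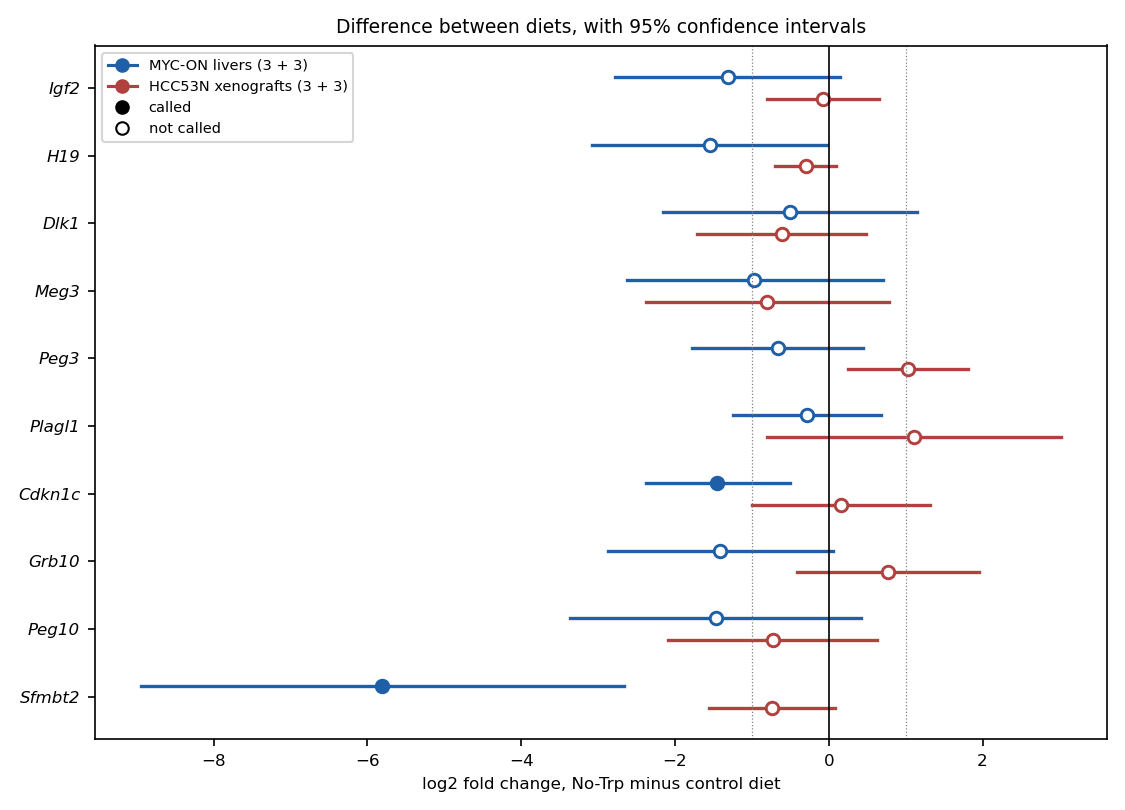
Log2 fold change between diets (No-Trp minus control) for each of the 10 genes in livers (blue) and xenografts (red), each from 3 and 3 mice, with 95% confidence intervals. Filled points were called and dotted lines mark 1 log2 unit. All 10 liver values lie below 0, and the xenograft interval of Peg3, from 0.25 to 1.81, is the only one of that model clear of 0.

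Between the models most of the 10 genes were lower in xenografts. On the control diet 7 of 10 genes were called lower in xenografts and 0 higher, where 43.5% of all genes were called and 20.2% were called lower. On the No-Trp diet 5 were called lower and 2 called higher, where 43.7% of all genes were called, 19.1% lower and 24.5% higher. Igf2, H19, Dlk1, Cdkn1c and Peg10 were called lower in xenografts on both diets. The livers compared here also gave the liver diet values that took part in the choice of the list, so nothing is read from these counts. The adjusted p of single genes between models carry the same limit. Hepatocyte marker RNA was also lower in xenografts, with the ranges given above, and its part in these differences was not tested. Igf1r, the receptor through which IGF2 signals, was 5.63 to 8.63 CPM in livers and 59.4 to 97.8 CPM in xenografts, higher by 3.98 ± 0.20 log2 units on the control diet (adjusted p = 2.69e-08). Igf2r, an imprinted receptor that clears IGF2, differed by -0.81 ± 0.21 on the control diet (adjusted p = 0.00571), under the fold threshold.

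**Figure D5:**
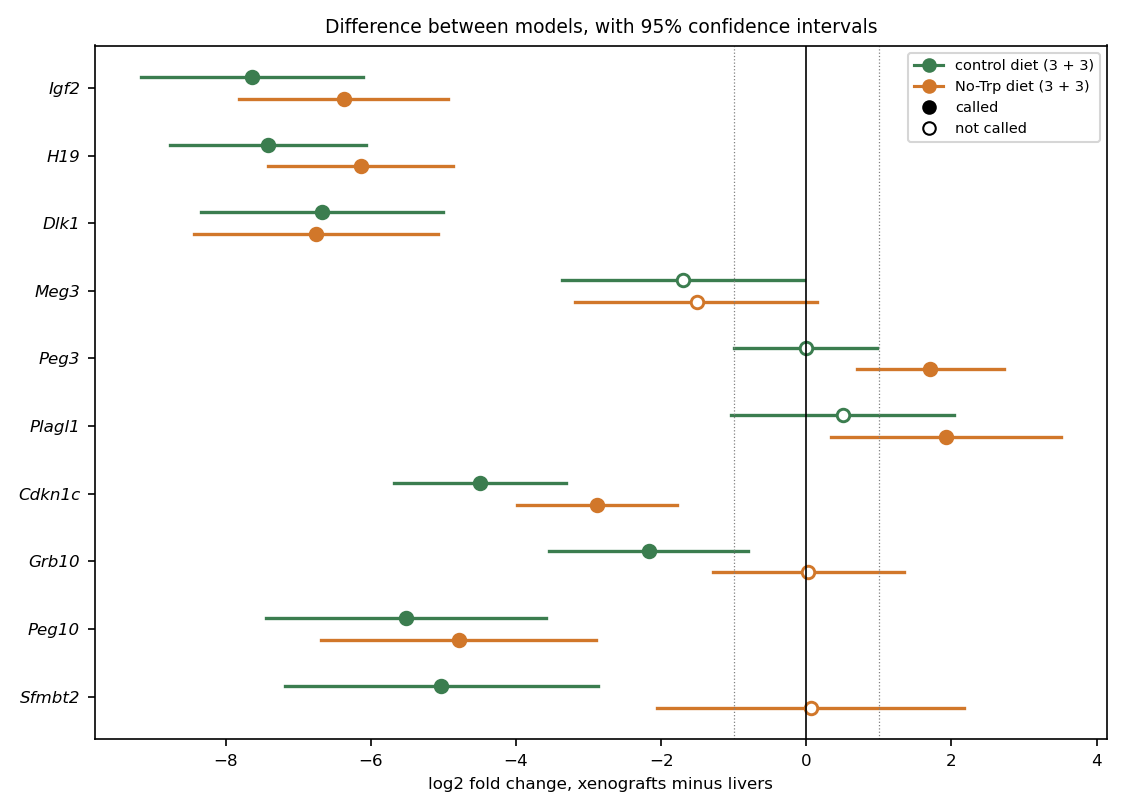
Log2 fold change between models (xenografts minus livers) for each of the 10 genes on the control diet (green) and the No-Trp diet (orange), each from 3 and 3 libraries, with 95% confidence intervals. Filled points were called and dotted lines mark 1 log2 unit. Igf2, H19, Dlk1, Cdkn1c and Peg10 were called lower in xenografts on both diets, and Grb10 and Sfmbt2 on the control diet only. Meg3 also lies left of 0 on both diets but was not called.

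Imprinted genes outside the list did not share one direction in livers. Of 30 other imprinted genes 21 could be tested, and the median was 0.09 log2 units. With No-Trp feeding 5 were called higher, where 9.28% of all genes were, and 1 was called lower, where 7.27% were. This list was also chosen with earlier results known, and nothing is read from these counts. DESeq2 called 8 of the 30. Slc22a3, an organic cation transporter, was higher by 3.66 ± 0.73 (adjusted p = 0.0217), Slc38a4, an amino acid transporter, by 2.23 ± 0.40 (adjusted p = 0.0196) and Dcn, the proteoglycan decorin, by 1.91 ± 0.29 (adjusted p = 0.0163). Mest, a paternally expressed enzyme of the same growth network, was the 1 that was lower, by -1.50 ± 0.34 (adjusted p = 0.0255), with 5.21, 8.06 and 5.75 CPM in control and 2.86, 2.15 and 1.55 CPM in No-Trp livers. In xenografts 1 of 23 was called by edgeR (2 by DESeq2, adding Dcn), where 0.360% of all genes were. It was Slc22a3, at 4.69 ± 0.72 (adjusted p = 0.0436), from 0.0798 to 0.122 CPM in control tumors and 1.0 to 4.07 CPM in No-Trp tumors. The control levels of Slc22a3 lie near 0 and its mean in xenografts is under 50 counts, so the size of this change is limited by depth. For Mest the xenograft difference was 1.84 ± 0.82 (adjusted p = 0.318), and the difference between the 2 diet effects was called for it (3.38 ± 0.96, adjusted p = 0.0377).

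Genes that neighbour the list on the chromosome went either way. Slc22a18, 12.7 kb from Cdkn1c and imprinted like it, rose by 1.49 ± 0.32 log2 units on the No-Trp diet in livers (adjusted p = 0.0244) while Cdkn1c was lower. Dhcr7, a cholesterol synthesis enzyme 362.1 kb away, was called lower (-1.03 ± 0.20), and Itih2, a liver plasma protein gene 239.1 kb from Sfmbt2, was called higher (3.02 ± 0.56). Kcnq1ot1 and Phlda2 of the Cdkn1c domain stood at -1.26 ± 0.46 and -1.77 ± 0.67 (adjusted p = 0.0803 and 0.0928 by edgeR). In livers 54 genes within 500 kb of a member, with at least 50 counts on average in a model, were tested. Slc22a18, Dhcr7 and Itih2 were the 3 called by edgeR, where 16.5% of all genes were. DESeq2 called 9 of all 56 such genes, Kcnq1ot1 and Phlda2 among them. In xenografts 0 of 55 were called by edgeR or DESeq2, and 5 had an unadjusted p under 0.05.

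A list of 12 oncofetal genes and repressors that act after birth was also examined; 2 of the 12, Zbtb20 and Zhx2, are such repressors and Afp is a target of both. Zbtb20, a zinc finger repressor of Afp, rose by 1.55 ± 0.47 log2 units in No-Trp livers (adjusted p = 0.0495), and Zhx2, which represses Afp and H19 in adult liver, was 8.2 to 15.2 CPM in control and 19.1 to 26.7 CPM in No-Trp livers (0.92 ± 0.28, adjusted p = 0.0496, under the fold threshold). Afp, alpha-fetoprotein, stood at 2660, 820.7 and 1708 CPM in control and 473.5, 88.1 and 711.4 CPM in No-Trp livers, and its difference of -2.02 ± 0.76 did not pass (adjusted p = 0.0915). Of the 12 genes edgeR called 1 higher, Zbtb20, where 9.28% of all genes were, and 1 lower, where 7.27% were. The lower 1 was Cd24a (-2.51 ± 0.56, adjusted p = 0.0268), a surface protein of progenitor and immature cells. DESeq2 called 4 of the 12, adding Afp and Igf2bp3. In xenografts 0 of the 12 were called by edgeR or DESeq2, and 2 had an unadjusted p under 0.05.

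Of 15 tested genes listed as imprint and DNA methylation factors, 6 were called lower and 0 higher in No-Trp livers by edgeR. Of all genes 7.27% were called lower. The list holds de novo methyltransferases and Tet enzymes, which act in demethylation, beside genes that keep imprints. The median was -0.83 log2 units beside -0.00 over all genes tested. Above 0 stood 4 of the 15, Ctcfl (2.59 ± 1.07), Zfp445 (0.49), Tet2 (0.14) and Zfp57 (0.07), none called. Like all gene lists here, this list was chosen with earlier results of these data known, so nothing is read from its count. Dnmt1, the maintenance DNA methyltransferase, was 133.0, 178.5 and 211.1 CPM in control livers and 62.2, 34.8 and 67.1 CPM in No-Trp livers (-1.66 ± 0.29, adjusted p = 0.0187). Its partner Uhrf1 fell by 2.32 log2 units (adjusted p = 0.0321) and the helicase Hells by 1.93 (adjusted p = 0.0266). Dnmt3a, Dnmt3b and Smchd1 were the other 3. Several of these are S-phase genes, and 5 of the 6 proliferation genes were called lower in the same livers, so both lists were lower in the same mice, and the part of proliferation in this count was not tested.

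Sfmbt2 acts with Polycomb and MBT proteins, and 4 of 16 of those tested were called lower in No-Trp livers, where 7.27% of all genes were: Ezh2 (-1.09 ± 0.29), Suz12 (-1.14 ± 0.21), Rbbp7 (-1.05 ± 0.31) and Hdac1 (-1.01 ± 0.21). None was called higher, and DESeq2 called 5, adding Pcgf6. The median was -0.57, and 3 of the 16 stood above 0: Bmi1 (0.67 ± 0.17), Ring1 (0.61 ± 0.23) and L3mbtl3 (0.18 ± 0.32). Bmi1 had adjusted p = 0.031 by edgeR but lay under the fold threshold. This list too was chosen with earlier results known, so nothing is read from its count. The proliferation genes were lower in the same livers, and their part in this count was not tested either. In xenografts none of 16 was called by edgeR or DESeq2, and 3 had an unadjusted p under 0.05. Of the 17 genes of the IGF axis 1 was called in livers, where 16.5% of all genes were. It was Igfbp4, an IGF binding protein, at 1.30 ± 0.36 (adjusted p = 0.0389). In livers 15 of the 17 genes stood above 0, with a median of 0.67. DESeq2 called 4 of them, adding Igf1, Igf2bp3 and Igfbp1. Igf1r differed by 0.38 ± 0.25 and Igf2r by -0.80 ± 0.22. Of the 10 Notch pathway genes 0 were called between diets by edgeR in either model, where 16.5% of all genes were in livers and 0.360% in xenografts. At an unadjusted p under 0.05 there were 2 in livers and 4 in xenografts, and DESeq2 called 2 in livers (Jag2 and Notch3) and 1 in xenografts (Jag1). In the Igf2, H19 and Kcnq1 region 1 of 10 genes was called in livers, Slc22a18, and in the Peg10 and Sgce region 1 of 9, Pdk4, a pyruvate dehydrogenase kinase raised in fasting (3.23 ± 0.76, adjusted p = 0.0291). DESeq2 called 3 in each of these regions, adding Kcnq1ot1 and Phlda2 in the first and Pon2 and Pon3 in the second. In the small network list, 1 of 7 was called higher in livers (Dcn), where 9.28% of all genes were. There 1 was called lower (Mest), where 7.27% were.

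Which genes followed each member most closely depended on the model. Across the 6 livers and 11864 genes with at least 50 counts on average, H19 was followed by Slc7a9 (Pearson r 0.999), Igf2bp3 (0.998) and Ccdc18, Igf2 by Pxylp1 (0.995), Slc7a7 and Grb10 (both 0.994), Sfmbt2 by Ccdc71 (0.999), Polr1c and Gpbp1, and Cdkn1c by Cfl1, Timm50 and Ppif (each 0.999). Igf2bp3, an RNA-binding protein of fetal tissue named for binding Igf2 mRNA, stood at 91.0 to 112.6 CPM in control and 17.8 to 60.9 CPM in No-Trp livers. Within the list, H19 and Igf2 had r = 0.957, Grb10 and Igf2 0.994, and Peg10 and H19 0.981 across livers, whereas Sfmbt2 had 0.543 with Igf2 and its highest value, 0.883, with Cdkn1c. Across the 6 xenografts H19 and Igf2 had r = 0.643 and Grb10 and Igf2 -0.728. These are descriptions over 6 points that share diet groups, mouse 107 and library depth, and no p is attached.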

How the data were processed

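PolyA RNA of 6 MYC-ON livers and 6 HCC53N xenografts was sequenced, and the authors deposited 1 table of raw read counts per gene and library. According to the submitters' processing notes the tools were Trim Galore, STAR 2.7.2b, SAMtools 1.9, HTSeq, Bowtie2 2.3.4.3, BWA 0.7.17 and DESeq2, with mm10 and GRCm38.p6 as builds; the strand setting and the rule for overlapping genes are not given in the sources used here. Rows that name no gene (24.7 to 39.4% of each table's total) were left out. Depth on genes was 14660963 to 26085349 counts. Symbols were matched to GENCODE M21 for 98.5% of the 24062 rows, 950 of them through an older symbol. Counts were tested with edgeR 4.0.16 (R 4.3.3): TMM factors, filterByExpr, robust quasi-likelihood fit, two-sided F test and Benjamini-Hochberg adjustment over all genes tested. Calls required an adjusted p not above 0.05 together with a log2 difference of 1 or more in either direction, as in the study's methods. Diet effects were fitted on the 6 libraries of a model, and model differences and interaction on all 12. Levels are CPM scaled by TMM over 12 libraries, and RPKM uses the summed exon length. Log2 CPM for correlations had a prior count of 2.

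Groups came from the sample labels, and the mice are separate animals by their numbers. The members and gene lists were chosen with earlier results of these data known. By rule, named genes are the 10 members, the 2 highest and 2 lowest genes of each list with at least 50 counts on average, Afp, Zhx2, Igf2r and Igf1r, genes within 500 kb of a member, the 3 genes most correlated with a member, and genes above 5% of a library's counts. Dnmt1, Dnmt3a, Dnmt3b, Smchd1, Rbbp7, Hdac1, Igf2bp3 in livers, Igf2os, Mir675 and Mir770 were named after their values were seen. Outside the rule as well are Usp29, Ctcfl, L3mbtl3, Pcgf6, Pon2, Mir483, Igfbp4 and Zfp57 in livers, and Slc22a3 in xenografts. Alternatives were DESeq2 1.42.0, RLE size factors, library totals, other count filters, counts without Rn45s, the resubmission mark as a covariate, another set of libraries in the fit, and leaving out each mouse; the fit without marked libraries was added after seeing the data. On simulated counts the fit recovered 97.5% of 200 changed genes in livers, 96.0% in xenografts and 60.0% for the interaction. False calls were 4.88%, 1.54% and 2.44% of the calls. The simulation gave every gene and mouse the same spread. It planted changes of a single size, only in genes with at least 50 counts on average. It held no outlying mice, so these rates need not hold for the real libraries. Sequences are from RefSeq for GRCm38.p6.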

Additional observations from a re-analysis of the deposited data

Results flagged for a closer look

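The diet effect on Sfmbt2 differed between the models by 5.09 ± 1.33 log2 units (xenograft minus liver), and Sfmbt2 was past the thresholds by edgeR. This difference contains the liver diet values by which the genes were chosen, so it is a description and not a test. The difference was above 0 in every fit with 1 mouse left out, from 4.30 to 5.70, but it was past the thresholds in 2 of those 12 fits, those without mouse 102 or 108. The values rest on control livers 101 and 103, since liver 102 had 3.89 CPM.

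Peg3 was lower in 3 of 3 No-Trp livers and higher in 3 of 3 No-Trp xenografts than in any control of the same model. The difference between the effects was 1.72 ± 0.64 log2 units and was under the thresholds by edgeR; it was 1.65 by DESeq2. It contains the same liver values. Adipocyte and skeletal muscle markers were higher in the same No-Trp xenografts, and their part was not tested.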

How the results depend on the processing

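No paired analysis was possible because the mouse numbers are not shared between groups. Leaving out each mouse in turn, the genes called ranged from 8 to 3207 in livers (2337 with all mice; 8 without mouse 103, 294 without 101, 368 without 105 and 1269 without 107), from 9 to 78 in xenografts (53; 9 without 43, 14 without 37, 20 without 41 and 31 without 36) and from 916 to 2571 for the interaction (1966; 916 without 103, 1249 without 107, 1252 without 43, 1287 without 37 and 1294 without 36). Members called ranged from 0 to 2 in livers and from 0 to 1 for the interaction. With adjusted p alone 3570 genes were called in livers. In xenografts the count was 23 with all 12 libraries in the fit, 15 with at least 10 counts everywhere, 85 without Rn45s, 380 by DESeq2, 118 unfiltered, 82 with RLE factors and 4 with the resubmission covariate. Without the marked libraries 0 genes were called by edgeR in livers (4948 at an unadjusted p under 0.05) and 0 in xenografts (2081), and 0 members in livers. Members called by DESeq2 were 4 in livers (adding H19 and Grb10), 3 for the interaction (adding Grb10 and Peg3) and 1 in xenografts (Peg3); unfiltered, they were 1 in livers and 0 for the interaction, Sfmbt2 being the one lost. Library totals moved the median of all genes to -0.30 in livers, 0.11 in xenografts, 0.41 for the interaction and 0.17 and 0.68 between models, and the higher and lower calls from 1311 and 1026 to 732 and 1532 in livers, from 36 and 17 to 60 and 11 in xenografts, from 1036 and 930 to 1825 and 437 for the interaction, and from 3796 and 2959 to 5797 and 2024 between models on the No-Trp diet; the counts of members called did not change.

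Signs that changed all belonged to differences that were not called. In xenografts between diets, with the resubmission covariate and without the marked libraries, the values were -0.26 and -0.26 for Cdkn1c, 0.28 and 0.27 for Dlk1, 0.034 and 0.031 for H19, 0.70 and 0.70 for Igf2 and 0.70 and 0.70 for Meg3; Igf2 was 0.04 with library totals. The interaction of Dlk1 was 0.23 with library totals and 0.54 with the covariate. Between models on the No-Trp diet Grb10 was -0.015 without Rn45s, -0.053 by DESeq2, -0.055 with 6 libraries, -0.091 with the covariate and -0.055 with RLE factors, and Sfmbt2 was -0.058 by DESeq2, -0.031 with 6 libraries and -0.037 with RLE factors. Peg3 on the control diet was 0.018 with at least 10 counts and 0.14 with library totals. Over single omissions these ranges crossed 0: between diets in xenografts Cdkn1c -0.30 to 0.41, Igf2 -0.35 to 0.13 and Meg3 -1.21 to 0.39; interaction Dlk1 -0.55 to 0.30 and Meg3 -0.25 to 1.38; between models on the No-Trp diet Grb10 -0.46 to 0.50 and Sfmbt2 -0.25 to 0.67; and on the control diet Peg3 -0.17 to 0.25 and Plagl1 -0.34 to 1.01. The cause was not tested. Counted over the 10 genes, the 5 comparisons and all alternatives together, another 678 values kept sign and call, 28 lost and 12 gained a call. Dlk1 in xenografts, with a mean of 26.0 counts, is limited by depth.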

Other observations

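The mice that held the extremes differed by gene. Of the 6 livers, mouse 101 was highest for H19, Meg3, Cdkn1c, Peg10 and Sfmbt2, mouse 102 for Igf2, Peg3, Plagl1 and Grb10, and mouse 103 for Dlk1. In xenografts, 43 was lowest for Peg3, Plagl1, Cdkn1c and Grb10 and highest for Igf2 and Dlk1, and 41 was highest for H19, Meg3, Peg10 and Sfmbt2.

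Zfp57, a zinc finger protein that protects imprints from demethylation, stood at 0.958 to 2.94 CPM in livers and 44.7 to 95.5 CPM in xenografts, higher by 5.43 ± 0.34 log2 units on the control diet (adjusted p = 1.21e-07 by edgeR). Within xenografts it was 71.6, 77.5 and 95.5 CPM on the control diet and 54.9, 56.2 and 44.7 CPM on the No-Trp diet, without overlap but not called (-0.66 ± 0.17, adjusted p = 0.121).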
